A study of Mus musculus with 7 samples.

Results

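Triglyceride, the storage lipid of fat cells, is built stepwise on glycerol 3-phosphate, and 8 genes of 23996 in the deposited expression tables stand for those steps here. They were taken by symbol, as Gpd1, Gpam, Agpat2, Agpat3, Lpin1, Lpin2, Dgat1 and Dgat2. Each encodes an enzyme of the pathway, and all 8 were found.

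The data are RNA-seq of 3T3-L1, a mouse fibroblast line of embryonic origin that can be driven to become fat cells by hormones, in 7 conditions with 1 library each. The 0h control came from confluent cells before differentiation. At 4 h and at 24 h, cells had been given either MDI, a mixture of the phosphodiesterase inhibitor IBMX, the glucocorticoid dexamethasone and insulin, or conditioned medium (CM), which is MDI medium collected from 3T3-L1 cells 48 h into differentiation. Preconfluent cells given the same media, with no time stated, make up the last pair (Pro MDI, Pro CM). The study asked which factor matters for 3T3-L1 differentiation. Every treated cell received inducers, and no untreated library was taken at 4 h or 24 h, so inducers, medium change and elapsed time cannot be told apart against 0h. Nothing was replicated. A difference between 2 libraries is therefore described by its size, with no test of conditions.

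In the pathway, Gpd1 reduces a glycolytic intermediate to glycerol 3-phosphate. Glycerol 3-phosphate acyltransferases (GPATs, Gpam among them) add the first fatty acid, and acylglycerol-phosphate acyltransferases (AGPATs) add the next to give phosphatidate. Lipins remove the phosphate to leave diacylglycerol, and the enzymes Dgat1 and Dgat2 add the last fatty acid. Loss of AGPAT2 in people causes lipodystrophy, a lack of fat tissue, and mice without lipin 1 also lack normal fat.

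Promoter sequence was at hand for 5 members, from RefSeq on build GRCm38.p6, as windows from 250 bases before to 50 bases after a transcript start. Below are 3 of them, read 5′ to 3′ along the gene's strand. They are shown because the lipin genes differed in opposite directions between the media at 4h (Lpin2 by less than 2-fold) and because Gpam starts the acylation steps. Capitals mark any match to 7 short motifs, on either strand. The windows are Lpin1 at chr12:16610917-16611216 (minus strand), Lpin2 at chr17:71183728-71184027 (plus strand) and Gpam at chr19:55099428-55099727 (minus strand).
Lpin1: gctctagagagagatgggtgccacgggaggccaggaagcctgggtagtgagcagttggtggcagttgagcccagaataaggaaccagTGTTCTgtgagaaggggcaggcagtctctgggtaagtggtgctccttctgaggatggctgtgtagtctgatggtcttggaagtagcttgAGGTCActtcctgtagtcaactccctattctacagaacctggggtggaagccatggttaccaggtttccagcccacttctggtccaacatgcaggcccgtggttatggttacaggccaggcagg
Lpin2: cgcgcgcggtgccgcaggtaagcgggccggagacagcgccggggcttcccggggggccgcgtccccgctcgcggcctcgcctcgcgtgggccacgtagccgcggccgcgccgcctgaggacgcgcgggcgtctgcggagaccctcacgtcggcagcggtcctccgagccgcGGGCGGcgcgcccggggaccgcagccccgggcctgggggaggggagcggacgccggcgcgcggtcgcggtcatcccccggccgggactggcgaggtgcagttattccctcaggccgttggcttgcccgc
Gpam: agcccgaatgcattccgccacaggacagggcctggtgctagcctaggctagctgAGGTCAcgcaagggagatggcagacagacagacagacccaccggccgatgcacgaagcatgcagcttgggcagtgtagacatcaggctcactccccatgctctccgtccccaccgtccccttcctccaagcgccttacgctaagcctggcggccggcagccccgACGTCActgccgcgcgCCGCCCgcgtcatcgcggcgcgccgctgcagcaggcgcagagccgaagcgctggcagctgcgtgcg

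The motifs searched were the E-box CACGTG, the CCAAT box CCAAT, the GC box GGGCGG, the TATA box TATAAA, a short cAMP response element TGACGT, the nuclear receptor core motif AGGTCA and a glucocorticoid receptor core motif TGTTCT. The Lpin1 window held the nuclear receptor core motif from base -74 to -69 and the glucocorticoid core motif from -163 to -158. It held no GC box, and 55.3% of its bases were G or C. The Lpin2 window was 80.7% G or C and held a GC box from -79 to -74. Of the other Lpin2 windows, not printed, the one 20676 bases from the locus start held the glucocorticoid core motif from -203 to -198 and 3 CCAAT boxes, and the one at 446 bases held an E-box and 2 GC boxes. The other Gpam window held a CCAAT box. In the Gpam window a nuclear receptor core motif lay from -196 to -191, a short cAMP element from -32 to -27 on the opposite strand, and a GC box from -16 to -11 on the opposite strand. Of all 32851 windows of this length in the table, 16.3% held the nuclear receptor core motif, 19% the glucocorticoid core motif, 7.51% the short cAMP element and 35.7% the GC box. The other motifs occurred in 7.15% (E-box), 37.4% (CCAAT box) and 13.6% (TATA box). Agpat2 had 3 GC boxes, 2 of them overlapping by a base, in a window that was 72% G or C, and Agpat3 held none of the 7 motifs. These matches describe letters only. The Lpin1 window starts a transcript 21196 bases upstream of the locus in the authors' tables, whereas the Agpat2, Agpat3 and Lpin2 windows coincide with the locus start and the Gpam window lies 30 bases from it. Further RefSeq starts exist for Lpin2, with 3 windows in the table, and for Gpam.

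The cells were labelled adipocyte in every library, but fibroblast markers were present throughout and several adipocyte markers were low or absent. The 6 preadipocyte and fibroblast markers were all above an FPKM of 1 in each library. They summed to 3059 at 0h, 3008 and 2795 at 4h, 1530 and 1300 at 24h, and 1262 and 1314 in preconfluent cells (MDI before CM). Col1a1 and Dlk1 made up most of each sum, and the other markers did not follow it alike. At 0h, 24h MDI and 24h CM, Ly6a was at 26.0, 371 and 116, and Thy1 at 100, 108 and 79.0. In the same order Pdgfra was at 191, 69.6 and 179, and Pdgfrb at 76.5, 4.93 and 4.68. FPKM count sequenced fragments relative to transcript length and to the library's mapped fragments, so levels of different genes can be compared. Of 8 adipocyte markers 3 reached 1 at 0h, at 4h and in preconfluent cells, 5 in 24h MDI and 6 in 24h CM, with summed levels of 86.97 in Pro CM and 582 in 24h CM at the extremes. Adiponectin (Adipoq) stayed below 1 throughout, at 0.930 or less, and leptin (Lep) was listed at 0 in every library. The droplet coat gene Plin1 reached 3.75 in 24h CM, against 0.286 in 24h MDI. Other genes of the adipocyte list were well above 1 already at 0h, with Lpl at 97.5, Fabp4 at 27.9 and the receptor gene Adipor2 at 21.2. In 24h CM these were at 339, 108 and 113. They were present before differentiation, so they do not by themselves mark fat cells, and the counts and sums above include them. Among markers of other cells, endothelial and epithelial genes stayed below 1. Of 5 leukocyte markers only Cd68 reached 1, and Ptprc was listed at 0 in every library but Pro CM, where it was at 0.00326. Of 3 bone markers 1 or 2 reached 1, with sums of 3.61 to 16.7. The muscle troponin gene Tnnt2 was at 20.2 in Pro MDI and 85.1 in Pro CM. FPKM sums were 558532 to 714427 and 10530 to 11101 genes reached 1. In bulk RNA, fewer cells of a type and less RNA per cell cannot be told apart.

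Gpd1 was below an FPKM of 1 throughout. The gene (chromosome 15, 99717593 to 99725007) had FPKM levels of 0.215 before induction, 0.396 with MDI and 0.341 with CM at 4h, 0.364 with MDI and 0.590 with CM at 24h, and 0.234 and 0.258 in preconfluent cells (MDI before CM). It thus passed no filter on low values and entered no comparison. Its highest level was in 24h CM. Annotated exons of an antisense gene, Gm16537, share 384 of its 2961 exon bases, and no source used here states whether counting used strand. Of the other genes that make or use glycerol 3-phosphate, some were more abundant. Gpd1l, which encodes a related dehydrogenase, was at 4.23 to 8.24, and its level was between 12.0 and 25.5 times that of Gpd1. The mitochondrial dehydrogenase gene Gpd2, which uses glycerol 3-phosphate, was at 9.42 at 0h, 13.5 and 7.30 at 4h, 4.27 and 4.54 at 24h, and 15.1 and 21.8 in preconfluent cells (MDI before CM in each pair). Gyk, the glycerol kinase gene, stood at 5.42 and 5.33 in preconfluent cells, against 1.36 to 2.33 in the other 5 libraries. Pck1, which feeds glycerol 3-phosphate from pyruvate in fat tissue, was listed at 0 in 6 libraries and at 0.00897 in Pro CM, and Aqp7, a glycerol channel, was at 0.170 to 0.377. Among 5 such genes, 3 reached 1, and none of those passed in the linear model described below in any contrast. Over all genes, 16.7% passed there at 4h and 11.0% at 24h against 0h, 21.3% between 4h and 24h, and none for the medium.

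**Figure D1:**
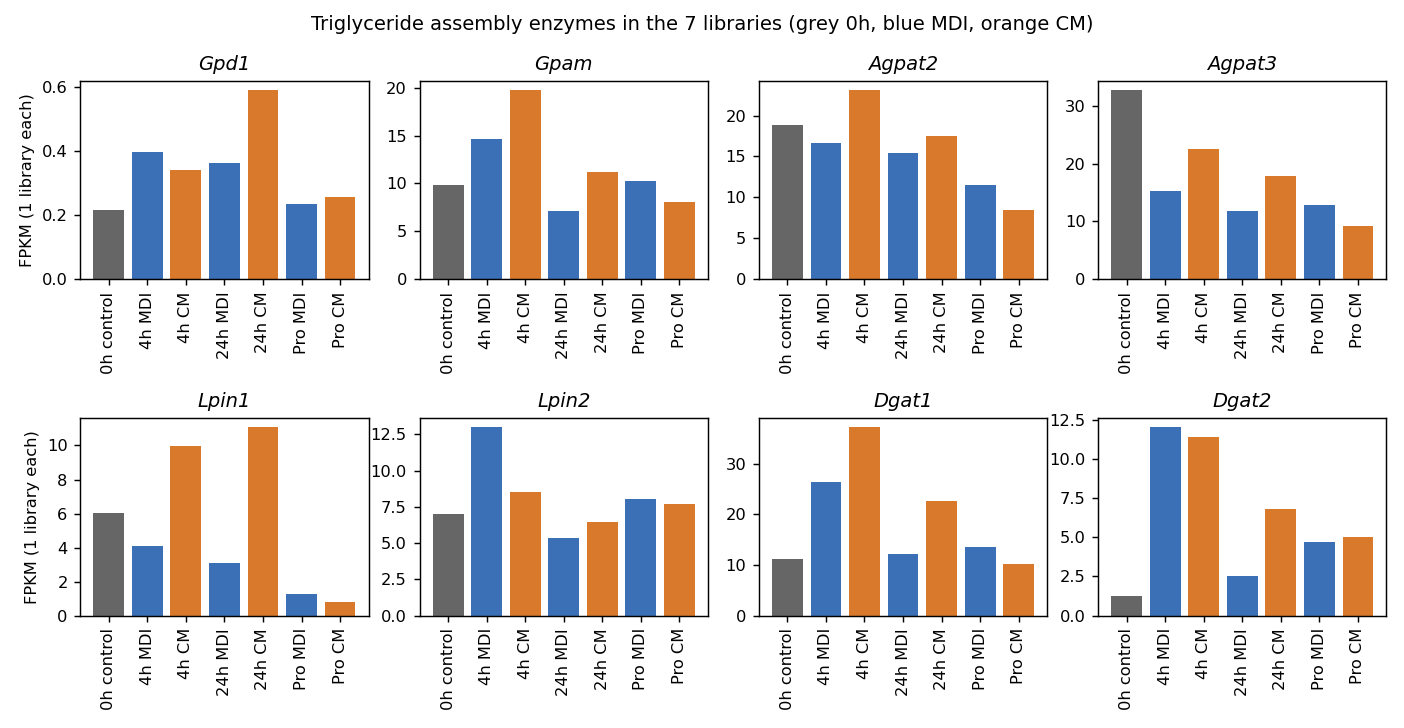
FPKM (y axis, linear, from 0) of each of the 8 enzymes in the 7 libraries (x axis), 1 bar per library, grey for 0h, blue for MDI and orange for CM. Dgat2 stands at 1.22 at 0h and above 11 in both 4h libraries, Lpin1 is highest in the CM libraries at 4h and 24h, and Gpd1 stays below 1.

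Gpam (chromosome 19, 55069734 to 55099447), the mitochondrial enzyme of the first acylation, stood at 9.79 before induction, 14.6 with MDI and 19.7 with CM at 4h, 7.06 with MDI and 11.2 with CM at 24h, and 10.2 and 8.06 in preconfluent cells. It was highest in the 4h libraries and lowest in 24h MDI, and it was 2.02 times its 0h level in 4h CM. Agpat2 (chromosome 2, 26593057 to 26604417), the main AGPAT of fat tissue, was at 18.8, 16.7, 23.1, 15.4, 17.5, 11.5 and 8.42 in the same order. It spanned little among the 5 libraries of confluent cells, and both preconfluent libraries lay below all of them. Agpat3 (chromosome 10, 78271563 to 78351700), a related acyltransferase of broad expression, was at 32.8, 15.3, 22.7, 11.8, 17.9, 12.8 and 9.24. Its 0h level was above that in every treated library. Agpat3 was thus 1.74 times as abundant as Agpat2 at 0h and between 0.767 and 1.11 times in the 6 treated libraries. Exons of Egfl7, on the opposite strand, share 64 of the 2130 exon bases of Agpat2, and Egfl7 was at 0.680 to 3.25. Exons of Gm40709, also on the opposite strand, share 16 bases with Agpat3.

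The lipins differed in opposite directions between the media at 4h, Lpin1 by more than 2-fold and Lpin2 by less. At 24h both were higher in CM. Lpin1 (chromosome 12, 16535669 to 16589770) encodes the main lipin of fat tissue. Its level was 6.03 before induction, 4.09 with MDI and 9.97 with CM at 4h, 3.11 with MDI and 11.1 with CM at 24h, and 1.26 and 0.785 in preconfluent cells. The CM libraries at 4h and 24h were the highest and the preconfluent ones the lowest, with the 0h control between them and the MDI libraries of confluent cells. Lpin2 (chromosome 17, 71183978 to 71249818), a second phosphatidate phosphatase, was at 7.01, 13.0045, 8.50, 5.36, 6.43, 8.02 and 7.67. It was highest in 4h MDI, and the other 6 libraries lay between 5.36 and 8.50. The ratio of Lpin1 to Lpin2 was 0.860 at 0h, 0.315 in 4h MDI, 1.17 in 4h CM, 0.580 in 24h MDI, 1.72 in 24h CM, 0.157 in Pro MDI and 0.102 in Pro CM. Lpin1 was thus the more abundant lipin only in the CM libraries of confluent cells. Their summed level was close in those (18.5 and 17.5) and in 4h MDI (17.1), and it was 8.47 in 24h MDI.

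The genes of the last step were highest at 4h. Dgat1 (chromosome 15, 76502015 to 76511818) stood at 11.1 before induction, 26.3 with MDI and 37.2 with CM at 4h, 12.1 with MDI and 22.6 with CM at 24h, and 13.6 and 10.1 in preconfluent cells. It was the most abundant of the 8 in both 4h libraries, in 24h CM and in both preconfluent ones, while Agpat3 led at 0h and Agpat2 in 24h MDI. Dgat2 (chromosome 7, 99153663 to 99182713), which belongs to an unrelated protein family and is needed for most stored triglyceride in mice, was at 1.22, 12.0, 11.4, 2.53, 6.83, 4.70 and 5.04. Its lowest level was at 0h, and every treated library lay above it. Dgat1 exceeded Dgat2 in all 7 libraries, by 9.09 times at 0h, 2.18 and 3.26 times in 4h MDI and CM, 4.80 and 3.31 times at 24h, and 2.89 and 2.01 times in preconfluent cells. The 0h ratio rests on the low Dgat2 level there (1.22).

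**Figure D2:**
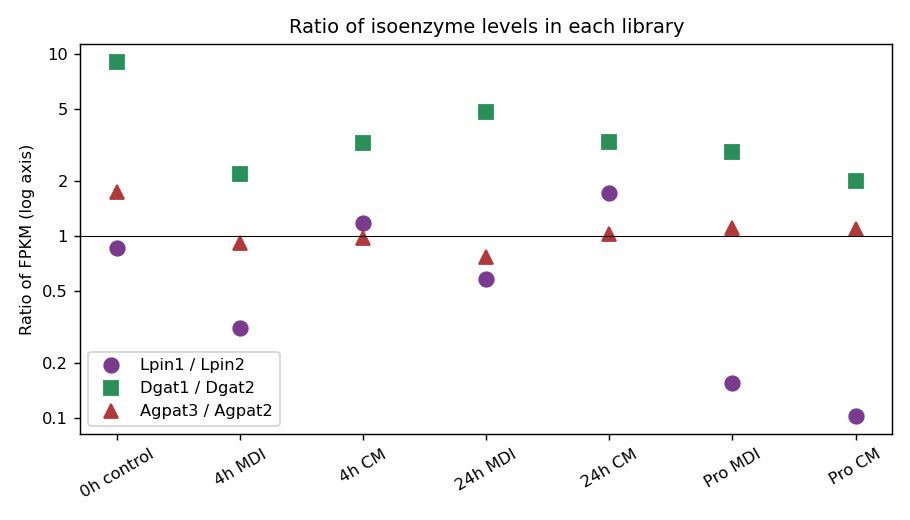
Ratio of FPKM between isoenzymes (y axis, log scale) in each of the 7 libraries (x axis): Lpin1 to Lpin2 (circles), Dgat1 to Dgat2 (squares) and Agpat3 to Agpat2 (triangles), 1 point per library. The lipin ratio runs from 0.102 in Pro CM to 1.72 in 24h CM. Dgat1 to Dgat2 is highest at 0h, at 9.09, where Dgat2 was low (1.22).

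Against 0h, the Dgat genes were the members that stood furthest from the control at 4h. Differences are on the log2(FPKM + 1) scale and cover genes that reach 1 in either library of a pair, and a difference of at least 1 (2-fold) is counted. In 4h MDI, Dgat2 was 2.55 higher than at 0h and Dgat1 1.17 higher, and Agpat3 was 1.05 lower, at -1.05. That is 3 of 7 members measured, against 27.6% of all 11332 genes (13.5% higher, 14.1% lower). Dgat1 dropped under 2-fold there with TPM scaling (0.85) and with a pseudocount of 5 (0.96), and Agpat3 with median-of-ratios scaling (-0.97) and with a pseudocount of 5 (-0.90). In 4h CM, Dgat2 was 2.48 higher and Dgat1 1.66 higher, which is 2 of 7 members against 18.9% of 11278 genes (9.53% higher, 9.35% lower). Only 120 genes had a larger difference than Dgat2 in 4h CM and 220 in 4h MDI. Gpam was just under the limit in 4h CM, at 0.94. The median member was above 0h by 0.53 for MDI and 0.64 for CM, while the median of all genes was -0.06 and -0.04. The authors' deposited table gave Dgat2 a Cuffdiff p of 0.01165 (q = 0.544) for 4h MDI and 0.01295 (q = 0.567) for 4h CM. These compare single libraries.

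At 24h both Dgat genes were nearer to 0h than at 4h, in MDI and in CM. In 24h MDI 1 of 7 members passed 2-fold, Agpat3 (-1.40), against 20.0% of 11404 genes (8.92% higher, 11.0% lower). In 24h CM it was 1 of 7 as well, Dgat2 (1.82), against 18.2% of 11413 genes (8.21% higher, 9.98% lower), with Dgat1 at 0.96; with a pseudocount of 5 Dgat2 was at 0.93. The median member stood at -0.33 in 24h MDI and 0.18 in 24h CM. Neither count exceeds the share of all genes. From 4h to 24h in MDI, each of the 7 had a negative difference, as had 50.3% of all genes, and Dgat2 (-1.89), Lpin2 (-1.14) and Dgat1 (-1.06) passed 2-fold, or 3 of 7 against 25.7% of 11132 genes (12.1% higher, 13.6% lower). With a pseudocount of 5, Lpin2 (-0.80) and Dgat1 (-0.87) no longer passed. The median was -0.95. In CM over the same interval the median was -0.38, none of the 7 passed, against 13.7% of 11111 genes (6.49% higher, 7.24% lower), and Lpin1 alone had a positive difference (0.14). The 4h and 24h comparisons with 0h share that 1 control library. Rescaling each library to a common sum (TPM) shifts all ratios to 0h by -0.36 in 4h MDI, -0.29 in 4h CM, -0.31 in 24h MDI and -0.19 in 24h CM. Small differences from 0h change sign with it, namely Lpin2 in 4h CM and Dgat1 in 24h MDI. Over all genes it turned the split of higher to lower from 1531 and 1599 to 1035 and 2990 in 4h MDI, from 1075 and 1054 to 739 and 2048 in 4h CM, from 1017 and 1259 to 748 and 2189 in 24h MDI, and from 937 and 1139 to 784 and 1722 in 24h CM.

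A linear model across all genes (limma) gave these time contrasts a test. It fitted each gene on the same log2 scale over the 7 libraries, by stage and by medium. Its 2 residual degrees of freedom measure how the medium effect varies between stages, together with library noise, and not the spread of replicate cultures; the 0h library is assumed to vary like the rest. Dgat2 rose between 0h and 4h by 2.52 (SE 0.42, limma adjusted p = 0.0329). It was 1 of 7 members that passed, and 16.7% of 11263 genes did (9.05% higher, 7.61% lower). With TPM scaling the split over all genes went from 1019 higher and 857 lower to 671 and 2037, and at 24h against 0h from 610 and 625 to 435 higher of 1406 in all. The Dgat2 change was not called without the low-value filter (adjusted p = 0.14) or without the 24h pair (adjusted p = 0.0514). Over all its alternatives that adjusted p ran from 0.0251 to 0.14. The Dgat1 change was 1.41 (SE 0.40, adjusted p = 0.0705), with a 95% interval of 0.37 to 2.45. It passed only without the Pro pair (adjusted p = 0.0268), a fit with 1 residual degree of freedom, or at a threshold of 0.1. The Gpam change was 0.74 (SE 0.33, adjusted p = 0.165), and that of Agpat3 was -0.78 (SE 0.36, adjusted p = 0.18).

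No member passed between 0h and 24h, where 11.0% of all genes did in limma (5.42% higher, 5.55% lower), and 2 of 7 members had an unadjusted p under 0.05, as did 32.1% of all genes. Those 2 members were Agpat3, at -1.12 (SE 0.36, adjusted p = 0.116), and Dgat2, at 1.24 (SE 0.42, adjusted p = 0.124). Between 4h and 24h none passed either, against 21.3% of genes in limma (10.9% higher, 10.4% lower). All 7 log2 changes were negative, as were 50.8% of those of all genes. An unadjusted p under 0.05 was found for 4 of 7 members and for 43.1% of all genes. The change of Dgat2 was -1.28 (SE 0.34, adjusted p = 0.0576) and that of Gpam -0.86 (SE 0.27, adjusted p = 0.0767). Those of Lpin2 and Dgat1 were -0.75 (SE 0.24, adjusted p = 0.0806) and -0.88 (SE 0.33, adjusted p = 0.109). Without the Pro pair, which leaves 1 residual degree of freedom, Gpam, Dgat1 and Dgat2 passed between 4h and 24h. Agpat3 passed between 0h and 24h in that setting. All were lower at 24h (limma adjusted p = 0.0378, 0.0369, 0.0488 and 0.0389). The share of all genes passing without the Pro pair is not given here, so these calls cannot be set against it.

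**Figure D3:**
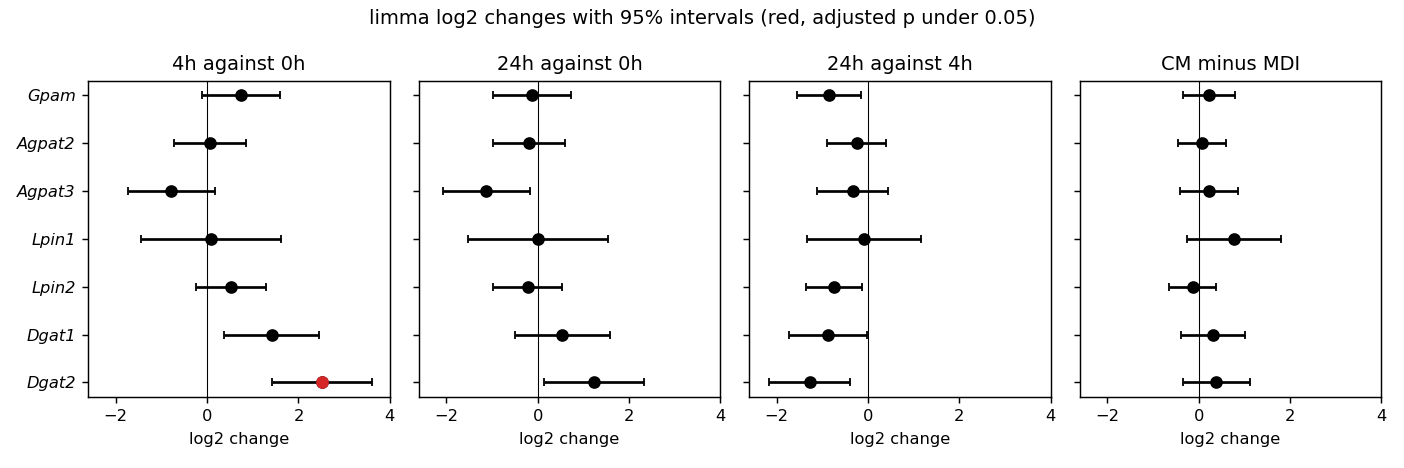
Log2 change (x axis) of the 7 measured members (y axis) in 4 limma contrasts, with 95% intervals and red for an adjusted p under 0.05. Dgat2 at 4h against 0h, at 2.52, is the only red point, and all 7 points of 24h against 4h lie below 0.

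The comparison of media at matched times was where Lpin1 stood out among the members. At 4h it was at 4.09 in MDI and 9.97 in CM, a ratio of 2.44 and a log2 difference of 1.11, and 75 of 10800 genes had a larger one. It was the 1 member of 7 that passed 2-fold, against 4.06% of genes (1.10% higher, 2.95% lower). Gpam, Agpat2, Agpat3 and Dgat1 were between 0.41 and 0.54 higher in CM. Dgat2 (-0.07) and Lpin2 (-0.56) were not higher. The median was 0.45 for the members and 0.03 for all genes. At 24h, Lpin1 was at 3.11 in MDI and 11.1 in CM, a ratio of 3.56 and a log2 difference of 1.56, with 65 of 10972 genes above it. Dgat2 followed at 1.15 (2.53 and 6.83), Dgat1 at 0.85 and Gpam at 0.60. All 7 were higher in CM, as were 51.3% of all genes, and 2 passed 2-fold, against 3.42% of genes (1.92% higher, 1.49% lower). With TPM scaling the split of all genes at 24h went from 211 higher and 164 lower to 320 and 155. With a pseudocount of 5 none passed at 4h or 24h, Lpin1 reaching 0.72 and 0.99. In the authors' deposited table Lpin1 had p = 0.1661 at 4h and p = 0.0378 (q = 0.860) at 24h. Adipocyte markers summed to 189.4 (MDI) and 229.5 (CM) at 4h, and to 138.6 and 582 at 24h, with Lpl, Fabp4 and Adipor2 making up most of it. Their part in these differences was not tested.

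In preconfluent cells the picture was different. None of the 7 passed 2-fold, against 3.45% of 10770 genes (2.23% higher, 1.23% lower), and 6 were lower in CM, as were 51.9% of all genes, with a median of -0.34 against -0.01 for all genes. Agpat3 (-0.43), Agpat2 (-0.41) and Dgat1 (-0.39) were lowest, Lpin1 was at -0.34 and Dgat2 at 0.08. Adipocyte markers summed to 141.3 in Pro MDI and 86.97 in Pro CM, and their part was not tested. Of 4 muscle markers, Tnnt2 was the only one to reach 1 in these libraries, and the list summed to 20.8 in Pro MDI and 85.5 in Pro CM; its part was not tested either. With the 3 stages in 1 limma fit, blocked by stage, no member passed for CM against MDI, no gene of 11158 did, and 145 genes but no member had an unadjusted p under 0.05. The Lpin1 change was 0.78 (SE 0.39, adjusted p = 1.00), with a 95% interval of -0.25 to 1.795. It was 0.38 without the 24h pair and 1.33 without the Pro pair. Its differences had opposite signs between stages, and this fit counts such a difference as residual. The preconfluent levels of Lpin1 were low, at 1.26 in MDI and 0.785 in CM.

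**Figure D4:**
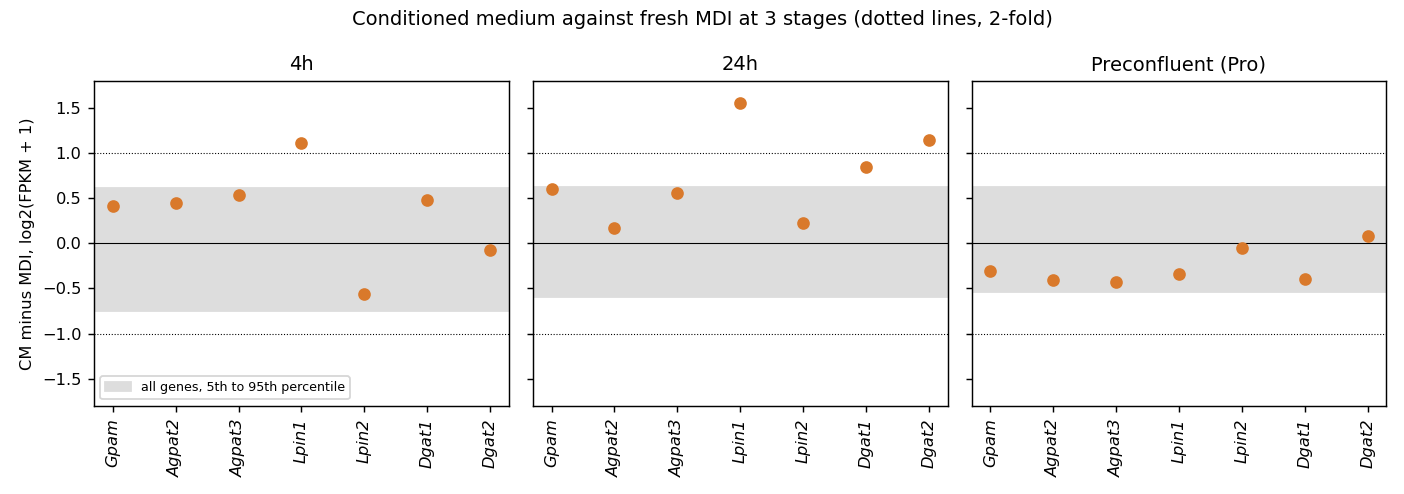
CM minus MDI in log2(FPKM + 1) (y axis) for the 7 measured members (x axis) at 4h, at 24h and in preconfluent cells, 1 point per pair of libraries. The grey band spans the 5th to 95th percentile of all genes and dotted lines mark 2-fold. Lpin1 lies above the band at 4h (1.11) and 24h (1.56) and below 0 in preconfluent cells (-0.34).

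Some other genes listed with the GPAT and AGPAT acyltransferases stood further from 0h at 4h than Gpam or Agpat2. Agpat6, the older symbol of the GPAT4 gene, was the most abundant GPAT gene, at 26.3 at 0h, 74.6 and 74.5 at 4h, 35.7 and 34.4 at 24h and 47.9 and 56.3 in preconfluent cells (MDI before CM). Its level was 2.69 to 6.98 times that of Gpam. Agpat6 rose by 1.47 between 0h and 4h (SE 0.19, limma adjusted p = 0.028) and fell by 1.07 between 4h and 24h (SE 0.15, adjusted p = 0.02). Agpat5, a mitochondrial AGPAT, was at 6.08 at 0h, 44.0 and 34.8 at 4h, 14.0 and 15.5 at 24h and 12.7 and 16.0 in preconfluent cells. It rose by 2.50 at 4h (SE 0.26, limma adjusted p = 0.0255) and fell by 1.35 by 24h (SE 0.21, adjusted p = 0.0242). Lclat1, a lysocardiolipin acyltransferase gene, went the other way, at 10.2 at 0h, 4.46 and 3.97 at 4h and 10.9 and 8.31 at 24h. It fell by 1.11 at 4h and rose by 1.02 by 24h (limma adjusted p = 0.0391 and 0.028). Of the 6 such genes tested, 2 rose and 1 fell at 4h, none passed at 24h against 0h and none for the medium in limma. Over all genes, 16.7% passed at 4h and 11.0% at 24h against 0h, and no gene of 11158 passed for the medium. Agpat9, the older symbol of the GPAT3 gene, was low and uneven, at 0.435 before induction, 2.97 with MDI and 0.724 with CM at 4h, 0.236 with MDI and 3.88 with CM at 24h, and 1.07 and 4.64 in preconfluent cells.

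**Figure D5:**
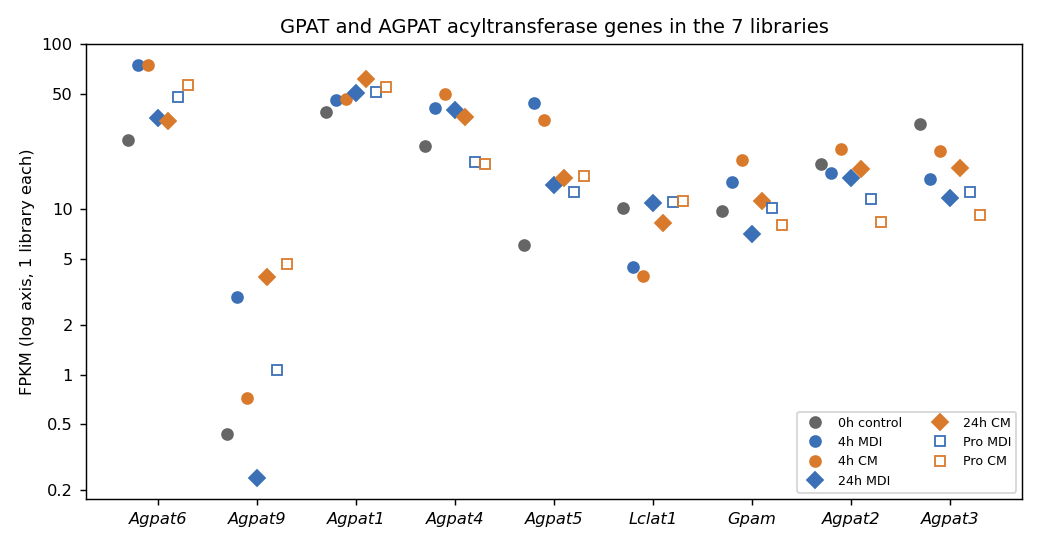
FPKM (y axis, log scale) of 9 GPAT and AGPAT genes (x axis), 1 point per library; circles are 0h and 4h, diamonds 24h and open squares preconfluent cells, in grey for 0h, blue for MDI and orange for CM. Agpat6 and Agpat5 are highest at 4h, Agpat3 is highest at 0h, and Agpat9 runs from 0.236 in 24h MDI to 4.64 in Pro CM.

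Genes of the neighbouring steps passed in some contrasts. Over all genes, 16.7% passed in limma at 4h against 0h, 11.0% at 24h against 0h and 21.3% between 4h and 24h. Among 6 other phosphatidate phosphatases and lipin regulators, Ppap2b, a membrane lipid phosphatase, was at 221 at 0h and between 32.9 and 92.2 in the treated libraries. It fell by 1.44 at 4h and by 1.74 at 24h against 0h (limma adjusted p = 0.0306 and 0.022), the only gene of that list to pass. The 5 listed genes of the monoacylglycerol route and of the DGAT2 family other than Dgat2 stayed at 0.438 or below, so none was measured. Of 15 measured genes of the branches to phospholipid, none passed against 0h, and Pemt, which methylates phosphatidylethanolamine, rose between 4h and 24h by 0.79 (limma adjusted p = 0.0366). As pairs, 2 of the 15 branch genes were at least 2-fold higher in 4h MDI than at 0h and 2 were lower. The shares of all genes were 13.5% and 14.1%. Chka, a choline kinase gene, was at 28.2 in 4h MDI and 9.87 at 0h, a log2 difference of 1.43. Cds2, whose product turns phosphatidate to CDP-diacylglycerol, was at 6.01 against 14.2 in that pair (-1.11), and Ept1 at 18.0 against 7.77 (1.12). Pcyt1b was at 0.482 in 4h CM against 2.30 at 0h (-1.16), the only 1 of 15 past 2-fold in that pair, against 18.9% of all genes. Of 3 measured genes of droplet formation at the endoplasmic reticulum, Fitm2, which promotes droplet budding, was at 5.68 at 0h, 24.1 and 29.0 at 4h, 21.5 and 41.4 at 24h and 12.1 and 9.10 in preconfluent cells. It rose by 2.04 at 4h and by 2.21 at 24h against 0h (limma adjusted p = 0.0397 and 0.0394). Tmem159, which encodes a partner of seipin, fell by 1.14 at 24h (limma adjusted p = 0.0386), and Bscl2, the seipin gene, was at 4.95 to 6.82.

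Regulators known to act on these enzymes were measured in the same libraries. Pparg, the master receptor of adipogenesis, stood at 27.2 before induction, 13.1 with MDI and 43.5 with CM at 4h, 32.7 with MDI and 54.1 with CM at 24h, and 14.5 and 11.8 in preconfluent cells. Like Lpin1, it was highest in the CM libraries of confluent cells. Cebpa, its partner factor, was at 8.82, 3.71, 7.76, 16.0, 38.3, 1.70 and 0.725, and Srebf1, a lipogenic factor, at 10.3, 6.36, 8.54, 21.2, 24.5, 6.79 and 6.73. Both rose between 4h and 24h in limma (adjusted p = 0.0479 and 0.0144), and Srebf1 also rose against 0h (adjusted p = 0.0458). Ppargc1a, a coactivator, was at 2.72 at 0h and at 0.514 or less in the treated libraries. Of 7 such genes 4 were tested in limma, and none passed for the medium or at 4h against 0h. Over all genes, none of 11158 passed for the medium, 16.7% at 4h against 0h, 11.0% at 24h against 0h and 21.3% between 4h and 24h.

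For the 7 members whose log2(FPKM + 1) spanned at least 1 over the 7 libraries, likeness was measured as the root mean square difference of mean-centred values over these libraries, among 5670 other genes. The genes most like Lpin1 were Vsig10l (0.19), Ppp2r3a (0.28) and Fam117a (0.30). For Dgat2 they were 1810055G02Rik (0.16), Irs2 (0.23), which encodes an insulin receptor substrate, and Ddah1 (0.23). Dgat1 was closest to Wdfy2 (0.12), Gli2 (0.17) and Jdp2 (0.21), and Gpam to Mapk8ip3 (0.12), Dlg1 (0.15) and Zfp719 (0.15). Pigt, Kmt2c and 1700020I14Rik (0.09 to 0.10) lay nearest Agpat2, Neu1, AW549877 and Sirt2 (0.12 to 0.13) nearest Agpat3, and Secisbp2l, Ube2q2 and Bcl10 (0.07 to 0.10) nearest Lpin2. Among the members themselves, Gpam and Dgat1 were the most alike (0.29), followed by Agpat2 and Agpat3 (0.32). Lpin1 and Dgat2 were the least alike (1.15), and the 2 lipins differed by 1.05.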

How the data were processed

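Per the labels, RNA was isolated with Trizol before Illumina library preparation. The submitters' processing notes name TopHat2 2.0.13 and Cuffdiff 2.2.0; no source used here gives their settings or the genome build. The authors deposited 7 full tables, each holding FPKM for 2 libraries with a Cuffdiff p-value and q-value for the pair, per the file headers. Subsets of these rows (19 sheets) were not used. Libraries were identified from the sample cells inside each table, and copies of a library differed by at most 1.1e-16. An empty line in each (1 per file) was left out.

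Pairs were compared in log2(FPKM + 1) by size (9 pairs). The linear model was limma 3.58.1 with an intensity trend, on genes reaching 1 FPKM in 2 or more libraries, with Benjamini-Hochberg adjustment over all genes at 0.05. The fit was also run on simulated data with independent noise and no stage-by-medium interaction. That run cannot show how well the p-values hold for these libraries. Counts of reads are not in the tables. The worth of 1 fragment was estimated from the most common ratio to 0h among genes under 0.1 in both libraries, taken as equal fragment counts. It came to 0.776 to 1.08 times as much FPKM as at 0h, and that peak was least marked in 4h MDI. Absolute depth is unknown and no counting interval is given. With 1 library per condition, no p-value here reflects variation between cultures.

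The members and gene lists were chosen with earlier results of these data known. Named genes outside the members were, in each list, up to 4 with the largest pair difference of at least 1, and for each member the 3 genes of most similar profile among genes reaching an FPKM of 5. Gpd1l, Gyk, Pck1, Aqp7, Bscl2 and Pemt were chosen after their values were seen. Settings varied were the pseudocount (0.1, 5), the low-value filter (none, 5), median-of-ratios or TPM scaling, the limma trend (off), the threshold (0.1) and the stages fitted. Loci are the authors', with 1 added to each start, and each overlaps the GENCODE M21 gene of the same name, mostly with other ends. R 4.3.3 and Python 3.11.15 were used, with pandas 2.3.3 and numpy 2.4.6.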

Additional observations from a re-analysis of the deposited data

Results flagged for a closer look

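For some genes the difference between CM and MDI had opposite signs at different stages, with at least 1 of the differences past 2-fold. With 1 library per condition the difference between stages was not tested. Values are CM minus MDI in log2(FPKM + 1). Lpin1 was at 1.11 at 4h and 1.56 at 24h, against -0.34 in preconfluent cells. Its preconfluent levels were low (1.26 in MDI and 0.785 in CM), and that difference was -0.11 with a pseudocount of 5 and -0.62 with 0.1. Dgat2 was at -0.07 at 4h, where its levels were close (12.0 in MDI and 11.4 in CM), and at 1.15 at 24h. Agpat9 was at -1.20 at 4h, 1.98 at 24h and 1.45 in preconfluent cells. Pparg was at 1.66 at 4h and -0.28 in preconfluent cells, and Cebpa at 1.21 at 24h and -0.64 in preconfluent cells. Cebpa levels were low there (1.70 in MDI and 0.725 in CM).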

How the results depend on the processing

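Of 375 recomputed pair differences of the members 357 kept their direction and their side of the 2-fold limit, 10 dropped under it, 6 came over it and 2 changed sign; of 287 limma changes 269 kept both, 2 were lost, 10 were gained and 6 changed sign. A pseudocount of 5, which weighs most on low genes, left 1 member past 2-fold in 4h MDI against 0h, 0 in 24h CM against 0h, 1 between 4h and 24h in MDI, and 0 for CM against MDI at 4h and at 24h. In 24h CM against 0h, 2 passed with a pseudocount of 0.1, with median-of-ratios scaling and with TPM scaling. In 24h MDI against 0h, 2 passed with TPM scaling. TPM scaling also turned Lpin2 in 4h CM against 0h (-0.0086) and Dgat1 in 24h MDI against 0h (-0.17), and in limma Agpat2 (-0.25) and Lpin1 (-0.20) at 4h against 0h and Lpin1 (-0.23) at 24h against 0h. Lpin1 at 24h against 0h was -0.034 with a pseudocount of 0.1. In limma at 4h against 0h, 0 members passed without the low-value filter and 2 at a threshold of 0.1; leaving out a pair gave 0 to 2. At 24h against 0h leaving out a pair gave 0 to 1. At 24h against 4h, 1 passed with a pseudocount of 5 and 3 at a threshold of 0.1, and leaving out a pair or the 0h library gave 0 to 3. For the medium effect, leaving out a pair gave 0 in each case; leaving out a pair moved Agpat2 from -0.12 to 0.31 and Lpin2 from -0.31 to 0.084, the sign turning without the 4h pair. The cause was not tested. Over all genes at 4h against 0h, limma called 1876, but 685 without the filter, 3847 at a threshold of 0.1 and 71 without the 24h pair, a fit with 1 residual degree of freedom. At 24h against 0h it called 1235, but 823 without the filter, 809 with the filter at 5 and 2498 at 0.1, and at 24h against 4h 2394, but 5 without the filter and 4468 at 0.1. For the medium it called 0, but 4 without the 24h pair and 2 without the Pro pair. Of pairs, genes past 2-fold with a pseudocount of 5 were 1651 of 3130, 1071 of 2129, 1204 of 2276 and 1033 of 2076 against 0h (MDI then CM at 4h, then the same at 24h), 1561 of 2859 and 765 of 1525 from 4h to 24h (MDI, CM), and 241 of 438, 176 of 375 and 191 of 372 for the medium (4h, 24h, Pro); with 0.1 the 4h medium pair gave 660. No paired analysis was possible because the labels give no replicate numbers; the medium fit matches libraries by stage only. Read totals are not in the tables, and Gpd1 and Agpat9 are too low for their differences to be read closely. Low levels also enter the differences of Dgat2 from 0h (1.22 there) and of Lpin1 in preconfluent cells (1.26 in MDI and 0.785 in CM).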
